A study of Mus musculus with 8 samples.

Results

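The Id family consists of the genes Id1, Id2, Id3 and Id4, which encode inhibitors of DNA binding. The members were taken by name, as the rows for these genes among the 55223 gene loci of the joint expression table, and each name matched 1 locus, so that 4 of 4 members were found. All 4 passed the filter on low values that left 16908 loci for testing, an average over the 8 libraries of 0.5 TPM or more. TPM, the unit of all levels, scales reads by transcript length and by library.

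The libraries came from cultured muscle stem cells of female C57BL/6J wildtype mice aged 6 to 8 weeks, grown on Matrigel for 2 days. All cultures, those given vehicle included, then spent 6 h without serum in medium with 200 ng/ml of a soluble BMP receptor (BMPR-IA fused to Fc), which binds BMP from the medium. In the first experiment, isolations 48 and 54 each gave a culture treated for 1 h with 100 ng/ml BMP4 and a culture given only vehicle (4 mM HCl with 0.1% BSA), called vehicle_a below. In the second experiment, isolations 75 and 77 were handled in the same way with 100 ng/ml BMP6 and a vehicle group called vehicle_b. Each of the 4 groups thus holds 2 libraries, each ligand was used in 1 experiment only, and ligand and experiment cannot be told apart. The isolations are labelled as biological replicates. The number of animals behind an isolation is not given in the sources used here, so that p-values measure the spread between these cultures.

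Id proteins carry a helix-loop-helix domain for pairing but lack the basic region that contacts DNA. They pair with E proteins, the common partners of tissue-specific basic helix-loop-helix (bHLH) factors such as MyoD, and the resulting dimers do not bind DNA. BMP receptors phosphorylate SMAD1, SMAD5 and SMAD9, and Id genes are textbook direct targets of these SMADs. In myoblasts, forced Id1 holds back differentiation by sequestering E proteins from the myogenic factors.

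All 4 members were higher in the stimulated than in the vehicle culture of every isolation. Of the 16908 loci tested, 8.19% were higher in all 4 isolations. Levels were compared as log2 of TPM plus 0.5, the scale of all log2 changes below unless stated, and on this scale Id1 had the largest mean change, 1.68. On estimated reads weighted by voom with the isolation as a block, Id4 was above it, at 1.79 against 1.69. The mean change was 1.26 for Id3, 1.12 for Id4 and 0.65 for Id2. Beside Id1, Id2 and Id3, whose levels lay between 44.6 and 403.2 TPM, Id4 was a low transcript of at most 1.92 TPM. Since TPM is expressed per length, these levels can be set beside each other. In bulk cultures, fewer cells that carry a transcript and less transcript per cell cannot be told apart.

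The 250 bases before the start of transcription are shown for the members found in the RefSeq promoter table, which were 3 of 4 (Id2, Id3 and Id4). They are given because the family is a set of SMAD targets that were higher together within 1 h, 5′ to 3′ on the strand of the gene, from build GRCm38.p6. Capitals mark the GC-rich motif GGCGCC, its variant GGAGCC, the SMAD box CAGAC and the palindromic form GTCTAGAC, which are described for SMAD proteins and were searched on both strands. The windows are chr12:25096093-25096342 on the minus strand for Id2, chr4:136143572-136143821 on the plus strand for Id3 and chr13:48260866-48261115 on the plus strand for Id4.
Id2: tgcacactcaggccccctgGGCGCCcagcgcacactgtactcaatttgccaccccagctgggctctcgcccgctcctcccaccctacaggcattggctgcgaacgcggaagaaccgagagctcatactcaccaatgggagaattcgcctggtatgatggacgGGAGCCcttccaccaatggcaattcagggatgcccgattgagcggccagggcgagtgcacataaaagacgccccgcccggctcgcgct
Id3: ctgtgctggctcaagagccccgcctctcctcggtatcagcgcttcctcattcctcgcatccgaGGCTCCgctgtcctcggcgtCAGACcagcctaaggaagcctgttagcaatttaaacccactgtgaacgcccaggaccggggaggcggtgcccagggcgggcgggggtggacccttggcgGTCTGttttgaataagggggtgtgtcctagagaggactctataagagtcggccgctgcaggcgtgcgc
Id4: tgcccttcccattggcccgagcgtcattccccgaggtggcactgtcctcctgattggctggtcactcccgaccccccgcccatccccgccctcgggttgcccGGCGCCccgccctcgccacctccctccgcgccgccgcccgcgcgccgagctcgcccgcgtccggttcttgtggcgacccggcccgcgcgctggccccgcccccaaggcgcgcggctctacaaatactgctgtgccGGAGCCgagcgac

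Counted back from the start, the motif GGCGCC began at -231 in Id2 and at -148 in Id4, and was not in the window of Id3. GGAGCC began at -88 in Id2 and at -13 in Id4, and on the opposite strand at -187 in Id3. CAGAC was found only in the window of Id3 among these members, at -167 and on the opposite strand at -68, where it reads GTCTG. The palindrome GTCTAGAC and the cyclic AMP response element TGACGTCA were in none of the 3 windows, and an E-box, CANNTG, was found once, at -196 in Id2. None of these motifs overlap each other in the 3 windows. Over the same 250 bases of 32851 promoters, 9.59% held GGCGCC, 26.0% GGAGCC, 42.2% CAGAC, 0.167% GTCTAGAC, 66.2% CANNTG and 1.55% TGACGTCA. These bases were rich in G and C, at 62.8% for Id2, 62.8% for Id3 and 75.6% for Id4, against a median of 52.4% over all promoters. A match describes the letters and is not a measured binding site.

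Id1 (locus merged_LIST.14281, chromosome 2, 152578171 to 152579330, plus strand, GRCm39) is the member best known as a BMP target. It stood at 149.4 TPM in the vehicle and 349.4 TPM in the BMP4 culture of isolation 48, and at 100.02 and 364.7 TPM in isolation 54. Of the BMP6 experiment, isolation 75 had 103.3 TPM in vehicle and 379.2 TPM after BMP6, and isolation 77 had 116.7 and 403.2 TPM. The lowest stimulated library thus had more than the highest vehicle library, with no overlap over the whole series. The share of all loci with such a separation was not counted, here or for Id3 and Id4 below. All 4 members had both BMP4 libraries above both vehicle_a libraries, as did 10.3% of loci, and both BMP6 libraries above both vehicle_b libraries, as did 10.6%. The stimulated libraries lay close together, at 357.0 ± 10.8 TPM after BMP4 and 391.2 ± 17.0 TPM after BMP6 (SD, n = 2 each). The vehicle groups were at 124.7 ± 34.9 and 110.0 ± 9.51 TPM (SD, n = 2 each). Stimulated Id1 was 2.34 times vehicle in isolation 48, and 3.65, 3.67 and 3.45 times vehicle in isolations 54, 75 and 77.

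**Figure D1:**
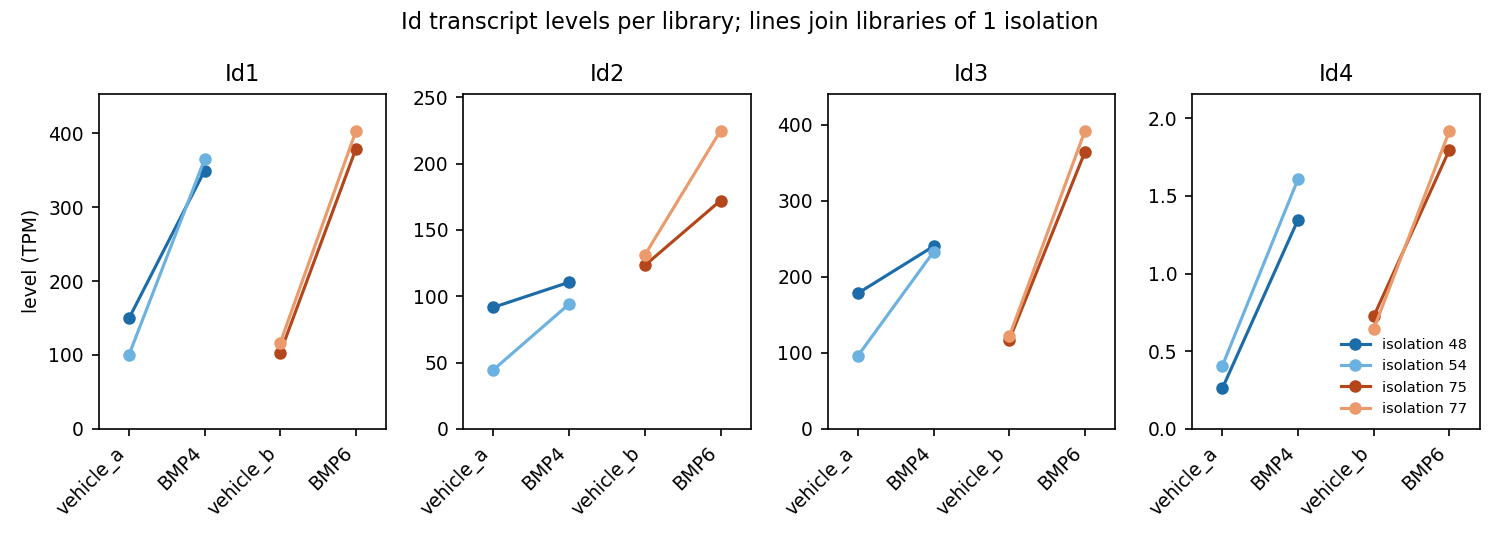
Levels of Id1, Id2, Id3 and Id4 in TPM (vertical axes from 0, a separate scale for each gene) in the 8 libraries, with a line from the vehicle to the stimulated library of each isolation. Every line rises from left to right, Id4 stays below 2 TPM, and for Id1 and Id3 the vehicle libraries of isolations 48 and 54 lie farther apart than their BMP4 libraries.

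In limma's test across all 16908 loci, Id1 was the member that passed for the mean of both ligands (log2 change 1.68, SE 0.13, adjusted p = 0.0212). It was 1 of 12 loci called there, 0.071% of those tested, of which the higher ones make 0.0651%. For a single ligand without the isolation in the model, no member passed. Id1 had a log2 change of 1.54 after BMP4 (SE 0.19, limma adjusted p = 0.156, 0.0237% of loci called) and of 1.83 after BMP6 (SE 0.19, adjusted p = 0.0905, 0.0118% called). With the isolation as a block, which the labels support because both cultures of an isolation share their cells, Id1 rose by 1.54 after BMP4 (SE 0.15, adjusted p = 0.0367) and by 1.83 after BMP6 (SE 0.15, adjusted p = 0.0481). That fit called 0.633% of loci after BMP4, 0.148% after BMP6 and 0.674% for the mean of both ligands. The call of Id1 for the mean of both ligands without the block was lost when BMP4 replicate 2 (adjusted p = 0.0535), vehicle_b replicate 1 (0.162), BMP6 replicate 1 (0.141), vehicle_b replicate 2 (0.12) or BMP6 replicate 2 (0.148) was left out, and when loci with low values were kept in (0.0604). With the block it was lost without isolation 75 (adjusted p = 0.0869) or isolation 77 (0.0721), and the blocked calls of Id1 after BMP4 (0.111 and 0.112) and after BMP6 (0.425 and 0.392) were lost there too. For the mean of both ligands, the log2 change of Id1 lay between 1.53 and 1.84 in all these fits with libraries or isolations left out.

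Id1 has 2 annotated transcripts, a spliced one of 2 exons and an unspliced one of 1 exon over the same span. The deposited transcript estimates assigned 8.49% and 10.1% of Id1's TPM to the unspliced form in the vehicle_a libraries and 14.0% and 10.8% in the BMP4 libraries. In the BMP6 experiment these shares were 9.36% and 9.09% in vehicle_b and 10.4% and 12.8% after BMP6. The share was higher after stimulation in all 4 isolations, by 2.73 ± 2.27 percentage points (SD, n = 4). The two-sided exact permutation test over the 4 isolations gave p = 0.125, the smallest p that 4 pairs allow. In TPM the unspliced form went from 9.67 to 12.7 in the vehicle libraries to 39.3 to 51.5 in the stimulated ones. The difference between the forms is an estimate over 226 bases of intron, and reads from unprocessed RNA and from a stable unspliced transcript cannot be told apart here.

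Id3 (merged_LIST.17356, chromosome 4, 135870808 to 135872703, plus strand, 1 annotated transcript) had vehicle levels in the range of Id1. Isolation 48 had 178.5 TPM in vehicle and 240.4 TPM after BMP4, and isolation 54 had 96.2 and 233.2 TPM. Isolation 75 had 117.1 TPM in vehicle and 364.7 TPM after BMP6, and isolation 77 had 121.7 and 392.4 TPM. No vehicle library reached a stimulated one, and both BMP6 libraries were above both BMP4 libraries. The shares of all loci with these patterns were not counted. The group values were 137.4 ± 58.2 TPM in vehicle_a, 236.8 ± 5.10 after BMP4, 119.4 ± 3.27 in vehicle_b and 378.5 ± 19.5 after BMP6 (SD, n = 2 each). Stimulated Id3 was 1.35 and 2.42 times vehicle in isolations 48 and 54, and 3.11 and 3.22 times in isolations 75 and 77.

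For Id3 the mean log2 change over both ligands was 1.26 (SE 0.19, limma adjusted p = 0.206) without the block, and with the block it rose by 1.26 (SE 0.14, adjusted p = 0.0446). The blocked call was lost without isolation 75 (adjusted p = 0.234) or isolation 77 (0.262). For single ligands the change was 0.85 after BMP4 (SE 0.26, limma adjusted p = 1, and 0.13 with the block) and 1.66 after BMP6 (SE 0.26, adjusted p = 0.504, and 0.114 with the block). The spread behind the BMP4 value lay in the vehicle libraries. Without vehicle_a replicate 1, of isolation 48, the mean change over both ligands was 1.48. Without vehicle_a replicate 2, of isolation 54, it was 1.03. Each of these fits leaves vehicle_a with 1 library, so that the spread of that group does not enter it.

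Id4 (ENSMUSG00000021379.3, chromosome 13, 48414704 to 48419502, plus strand, 1 annotated transcript) was the rarest member here. It stood at 0.262 and 0.407 TPM in vehicle_a, against 1.35 and 1.61 TPM after BMP4. It stood at 0.725 and 0.643 TPM in vehicle_b, against 1.80 and 1.92 TPM after BMP6. These levels rest on 40.2 and 58.6 estimated reads in the vehicle_a libraries and 106.1 and 89.5 in the vehicle_b libraries, against 199.2 to 263.6 in the stimulated ones. No vehicle library reached a stimulated one. Counting error alone amounted to 15.8% for 40.2 reads and 6.16% for 263.6 reads.

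As a ratio of TPM, Id4 had the largest change of the family in isolations 48 and 54 (5.15 and 3.96 times vehicle) and stood at 2.48 and 2.98 times vehicle in isolations 75 and 77. On the log2 scale the 0.5 TPM added to each value shrinks these ratios. The mean change over both ligands was 1.12 (SE 0.13, limma adjusted p = 0.0699) without the block, and with the block Id4 rose by 1.12 (SE 0.09, adjusted p = 0.0236). That blocked call was lost without any one of the 4 isolations (adjusted p from 0.0505 to 0.208). After BMP4 the change was 1.25, and Id4 passed with the block (SE 0.13, adjusted p = 0.0435) but not without it (SE 0.18, adjusted p = 0.26). The blocked call after BMP4 was also lost without any one of the 4 isolations (adjusted p from 0.105 to 0.17). After BMP6 it was 0.99 (SE 0.18, adjusted p = 0.723, and 0.17 with the block). With 0.1 TPM added in place of 0.5 the mean change of Id4 was 1.60, and with 2 TPM it was 0.55. Of the 50-base stretches of Id4's transcript, 2.08% also occur in transcripts of A330033J07Rik and Gm49291, which overlap it on the other strand and reached at most 0.093 TPM.

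Id2 (merged_LIST.5181, chromosome 12, 25143798 to 25147139, minus strand) had the smallest mean change, and its level also differed between the experiments. Isolation 48 had 91.7 TPM in vehicle and 110.6 TPM after BMP4, and isolation 54 had 44.6 and 94.1 TPM. Isolation 75 had 123.2 TPM in vehicle and 172.1 TPM after BMP6, and isolation 77 had 131.0 and 224.7 TPM. Within each experiment the stimulated libraries stood above the vehicle libraries. On TPM as deposited the vehicle_b libraries had more Id2 than the BMP4 libraries, an order that depends on the transcript estimates described below. The group values were 68.1 ± 33.3 TPM in vehicle_a, 102.3 ± 11.6 after BMP4, 127.1 ± 5.52 in vehicle_b and 198.4 ± 37.2 after BMP6 (SD, n = 2 each).

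Stimulated Id2 was 1.21, 2.11, 1.40 and 1.71 times vehicle in isolations 48, 54, 75 and 77. The log2 change was 0.67 after BMP4 and 0.63 after BMP6 (SE 0.32 each, limma adjusted p = 1 each, and 0.171 and 0.743 with the block). The value after BMP4 was 1.18 without vehicle_a replicate 1 and 0.15 without vehicle_a replicate 2, and with the block 1.07 without isolation 48 and 0.27 without isolation 54. For the mean of both ligands it was 0.65 (SE 0.23, limma adjusted p = 1, and 0.187 with the block). On TPM with all libraries, Id2 was thus the member that passed in neither fit for the mean of both ligands. Without isolation 48, which leaves BMP4 with 1 isolation, the blocked mean was 0.85.

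**Figure D2:**
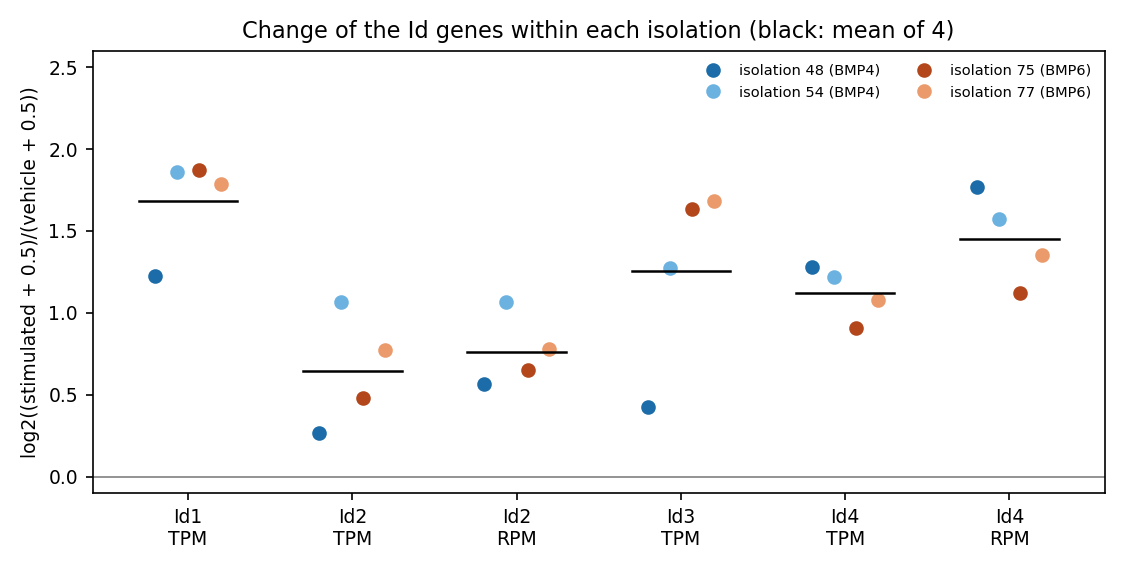
Change from vehicle to stimulated culture within each isolation (points, log2 of value plus 0.5, 0 meaning no change) with the mean of the 4 isolations (black lines), from TPM and, for Id2 and Id4, also from estimated reads (RPM). All points are above 0, isolation 48 is the lowest point for Id1, Id2 and Id3, and the BMP6 isolations are the highest for Id3 and the lowest for Id4.

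The TPM of Id2 depended on how the deposited transcript estimates divided its reads. The annotation lists a 3-exon transcript of 1431 bases, a 4-exon transcript of 1969 bases with a further exon of 536 bases upstream (25146604 to 25147139), and a 1-exon transcript. In BMP4 replicate 1 the 4-exon transcript was assigned 61.1% of Id2's TPM (67.6 TPM), and in BMP6 replicate 1 it was assigned 35.6% (61.2 TPM). In the other 6 libraries it had at most 0.279 TPM. The upstream exon itself was almost uncovered in both libraries, with 0.343 and 0.185 reads per base, against 323.1 and 385.0 reads per base on an exon of 591 bases that the 3-exon and 4-exon transcripts share. Over all 8 libraries the upstream exon had at most 0.244% of the coverage of that shared exon.

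**Figure D3:**
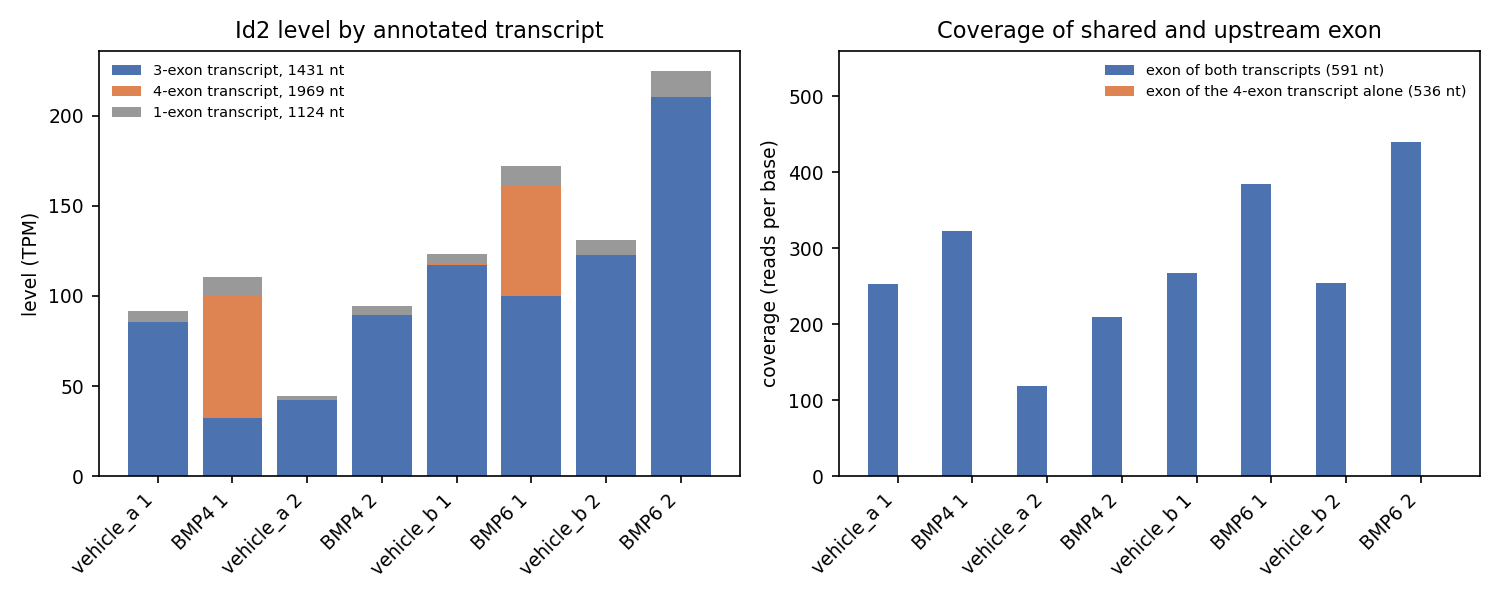
Left, Id2 level in TPM by annotated transcript in each library. Right, coverage in reads per base of the 591-base exon of both the 3-exon and the 4-exon transcript, and of the 536-base upstream exon of the 4-exon transcript alone. The 4-exon transcript makes up 67.6 TPM in BMP4 replicate 1 and 61.2 TPM in BMP6 replicate 1, although the bars of its own exon are too low to see in any library.

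TPM divides reads by length, so that reads assigned to the longer transcript count for less. With all Id2 reads on the 3-exon transcript, Id2 stood at 133.7 TPM in BMP4 replicate 1 and 192.7 TPM in BMP6 replicate 1, in place of 110.6 and 172.1. The vehicle_b libraries then had 122.0 and 129.4 TPM, less than BMP4 replicate 1 but more than BMP4 replicate 2 (93.1 TPM). Estimated reads scaled to the total of the library (RPM), which do not depend on the choice of transcript, gave Id2 log2 changes of 0.56, 1.06, 0.65 and 0.78 in isolations 48, 54, 75 and 77, against 0.27, 1.07, 0.48 and 0.78 from TPM. On RPM with the block, Id2 rose by 0.76 for the mean of both ligands (SE 0.08, limma adjusted p = 0.00727) and by 0.81 after BMP4 (adjusted p = 0.0166), in fits that called 2.02% and 5.06% of loci, and the change after BMP6 was 0.71 (adjusted p = 0.0716). Without the block Id2 did not pass on RPM. This reading of the data was added after the transcript values had been seen.

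A further set of reads may be shared with another locus. The gene Gm6175 on chromosome X (99628615 to 99629014) holds 8 of the 2433 stretches of 50 bases in Id2's transcripts, the length of 1 read. Gm6175 had 5.34, 2.81, 6.51 and 6.17 TPM in the vehicle libraries of isolations 48, 54, 75 and 77, and 8.67, 6.37, 10.5 and 11.9 TPM in the stimulated ones. Its log2 changes were 0.65, 1.05, 0.65 and 0.90. Those of Id2 were 0.27, 1.07, 0.48 and 0.78 on TPM and 0.56, 1.06, 0.65 and 0.78 on RPM. Reads of the pair cannot be told apart where they are identical. No 50-base stretch of Id1 or Id3 occurred in a transcript of another gene.

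Summed over the family, Id transcripts stood at 330.5 ± 126.4 TPM in vehicle_a, 697.6 ± 5.73 after BMP4, 357.2 ± 18.2 in vehicle_b and 970.0 ± 73.8 after BMP6 (SD, n = 2 each). The sum was 1.67 times vehicle in isolation 48 and 2.88, 2.67 and 2.76 times in isolations 54, 75 and 77. Within the family, Id1 went from 38.5% to 51.2% of the sum in the BMP4 experiment and from 30.8% to 40.4% in the BMP6 experiment. Id2 went from 20.2% to 14.7% and from 35.6% to 20.4%. Id3 went from 41.2% to 33.9% in the BMP4 experiment and from 33.5% to 39.1% in the BMP6 experiment, in opposite directions. Id4 was at most 0.212% of any group's sum. These sums and shares use Id2's TPM as deposited. With all Id2 reads on the 3-exon transcript, Id2 would be 133.7 in place of 110.6 TPM in BMP4 replicate 1. In BMP6 replicate 1 it would be 192.7 in place of 172.1 TPM.

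The changes of the members were compared in pairs within isolations, 6 pairs in all, by a two-sided exact permutation test over the 4 isolations, in which p cannot go below 0.125. Id1 exceeded Id2 by 1.04 ± 0.25 on the log2 scale and Id3 by 0.43 ± 0.32, in 4 of 4 isolations each (SD, n = 4, exact p = 0.125 each, 0.188 adjusted over the 6 pairs). Id2 was below Id3 by a mean difference of -0.61 and below Id4 by -0.47, also in 4 of 4 isolations (exact p = 0.125 each). Id1 was above Id4 in 3 of 4 isolations (mean difference 0.56, exact p = 0.25), and Id3 above Id4 in 3 of 4 (0.13, exact p = 0.875), a difference that turned to -0.20 on RPM, with Id3 above Id4 in 2 of 4. On RPM Id1 exceeded Id2 in 4 of 4 isolations, by 0.93, whereas Id2 was above Id3 in 1 of 4.

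The difference between the ligands was smaller than the half-width of its interval for all 4 members without the block, on log2 of TPM plus 0.5. The BMP6 response minus the BMP4 response was 0.29 for Id1 (95% interval -0.35 to 0.93), -0.04 for Id2 (-1.14 to 1.06) and -0.25 for Id4 (-0.87 to 0.36). The value for Id4 moved with the scale, to -0.44 on RPM with the block (-0.88 to 0.01, unadjusted p = 0.0528) and to -0.71 on voom with the block (-1.34 to -0.07, unadjusted p = 0.0339, limma adjusted p = 0.295). For Id3 it was 0.81 (-0.08 to 1.70, unadjusted p = 0.0686), and with the block the interval was 0.10 to 1.51 (unadjusted p = 0.0319, limma adjusted p = 0.353). No member passed after adjustment in either fit (limma adjusted p = 1 for all 4 without the block and 0.353 to 0.961 with it). Across all loci 0 were called in either fit, with 244 at an unadjusted p under 0.05 without the block and 2251 with it, and 30 called by voom on estimated reads with the block, 0.177% of loci. The value for Id3 was 0.36 without vehicle_a replicate 1, 1.25 without vehicle_a replicate 2, and with the block 1.23 without isolation 54. Over the alternative runs, those with libraries left out included, Id3 passed for this difference in 1 of 23. Id1 and Id2 passed in 0 of 23 and Id4 in 0 of 22. These intervals are wide enough to hold sizeable differences and do not show that the ligands act alike.

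The unstimulated cultures of both experiments differed widely. Without stimulation, 27.2% of loci were called between vehicle_b and vehicle_a, and no Id member was among them. Id2 was higher in vehicle_b by 0.98 (SE 0.32, limma adjusted p = 0.0638) and Id4 by 0.51 (SE 0.18, adjusted p = 0.077), while Id1 and Id3 had differences of -0.15 (adjusted p = 0.543) and -0.13 (0.709). Without vehicle_a replicate 1, which leaves that group with 1 library, the difference in Id2 was 1.50, and those in Id1 and Id3 turned to 0.13 and 0.31. On RPM Id4 passed, at 0.84 (limma adjusted p = 0.0238). Myogenin (Myog), a marker of differentiating myoblasts, stood at 1301 and 2154 TPM in vehicle_a and at 109.6 and 142.7 TPM in vehicle_b. The part of this difference in the Id values was not tested.

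The E proteins, the main partners that Id proteins bind, did not pass between stimulated and vehicle cultures in limma's fits of TPM with or without the block. Tcf3, which encodes E12 and E47, had 55.7, 48.5, 38.9 and 31.2 TPM in the vehicle libraries of isolations 48, 54, 75 and 77 and 45.7, 38.1, 40.5 and 33.2 TPM in the stimulated ones. It was lower after BMP4 in both isolations and higher after BMP6 in both, with a log2 change of -0.12 for the mean of both ligands. On voom with the block, which called 6.15% of loci after BMP4, Tcf3 fell by 0.33 after BMP4 (limma adjusted p = 0.00912), and its change after BMP6 was 0.06 (adjusted p = 0.999). Tcf4 ranged from 13.8 to 24.9 TPM and Tcf12 from 42.3 to 62.2 TPM over the 8 libraries, with mean log2 changes of 0.05 and 0.07. Their sum lay between 94.8 and 132.4 TPM in all libraries. The ratio of summed Id to summed E protein transcripts thus went from 3.17 to 5.41 in isolation 48, from 1.90 to 5.88 in isolation 54, from 3.62 to 9.35 in isolation 75 and from 3.90 to 10.2 in isolation 77. These are ratios of transcripts, with Id2's TPM as deposited, and protein was not measured.

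**Figure D4:**
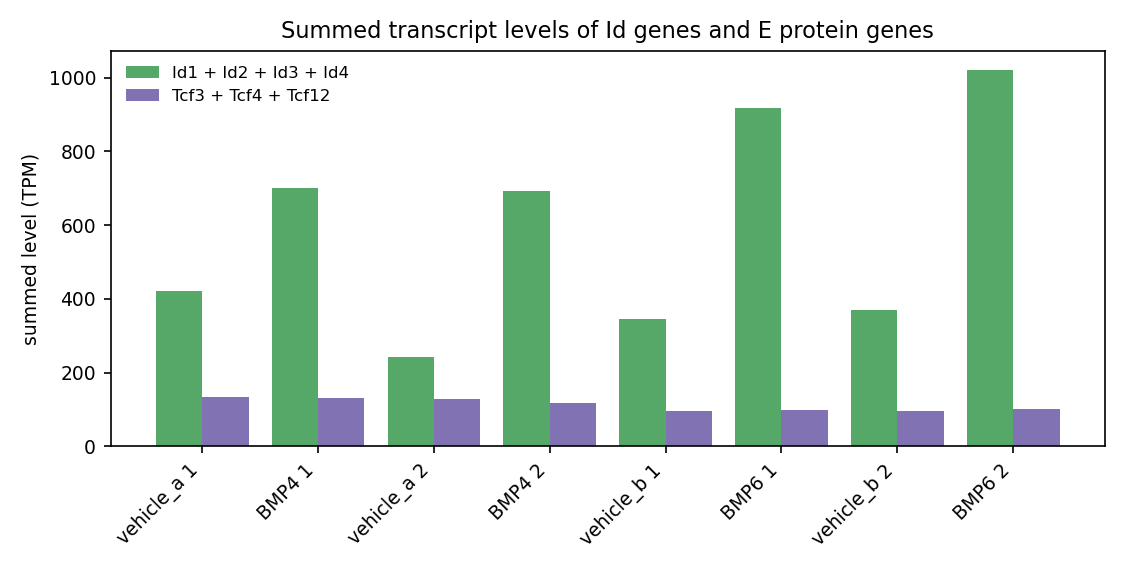
Summed TPM of the 4 Id genes (green) and of the 3 E protein genes (purple) in each library, in the order of the isolations. The E protein sums stay between 94.8 and 132.4 TPM in all libraries, while each stimulated library has a higher Id sum than the vehicle library to its left.

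Of the 4 myogenic bHLH factors, which pair with E proteins to activate muscle genes, Myf5 changed and the others did not pass in limma's fits of TPM with or without the block. Myf5 had 52.3 and 38.2 TPM in vehicle_a and 23.0 and 16.6 TPM after BMP4, and 94.0 and 86.4 TPM in vehicle_b and 58.6 and 52.3 TPM after BMP6. With the block it fell by 1.17 after BMP4 (limma adjusted p = 0.00326) and by 0.70 after BMP6 (adjusted p = 0.0192), among 0.0887% and 0.0118% of loci called lower there. Without the block its mean change of -0.93 did not pass (adjusted p = 0.217). Myf5 was lower in the stimulated culture of all 4 isolations. The share of loci lower in all 4 was not counted, and a link between Myf5 and the Id genes was not tested. Myod1 had a mean log2 change of 0.19, Myog of 0.06 and Myf6 of -0.18, and none of them passed in either fit. On voom with the block, which called 0.432% of loci after BMP6, Myod1 rose by 0.41 after BMP6 (limma adjusted p = 0.0262), and its change after BMP4 was -0.05 (adjusted p = 0.532).

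Other genes linked to Id function were read from lists, as counts of called members for the mean of both ligands. The lists were chosen with earlier results of these data known, so that their counts describe and are no independent support. Over all tested loci 0.0651% were called higher without the block and 0.627% with it, and the median change was -0.01. The Id family itself had 1 of 4 members higher without the block and 3 of 4 with it, and a median of 1.19. Among 33 tested members of a list of other BMP-SMAD target genes, 6 were higher without the block and 14 with it, with a median of 0.74. Without the block the inhibitory SMAD gene Smad7 rose by 2.69 (limma adjusted p = 0.00566) and the repressor gene Snai1 by 2.71 (adjusted p = 0.0228). With the block the Notch effector gene Hes1 (2.89), the homeobox genes Dlx2 (2.73) and Dlx3 (2.29) and the zinc finger gene Klf10 (2.21) were also higher (limma adjusted p from 0.00653 to 0.0357). Of 6 tested Hes, Hey and Bhlhe repressors, which are bHLH factors themselves, 0 passed without the block and 3 were higher with it (Hes1 by 2.89, Bhlhe40 by 1.42 and Hes6 by 0.30), with a median of 0.85. Of 4 tested members of the other tissue-restricted bHLH factors, the tendon factor Scx was higher with the block alone (0.60, limma adjusted p = 0.0428).

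Genes upstream and downstream of Id were read in the same way. For the mean of both ligands the blocked fit called 0.627% of loci higher and 0.0473% lower. Among 15 BMP receptor and signal-transducing SMAD genes, Smad9 was higher (0.74, limma adjusted p = 0.0379) and the co-receptor gene Rgma lower (-0.45, adjusted p = 0.0469) with the block, and 0 passed without it. On voom with the block, which called 2.05% of loci for the mean of both ligands, 3 of the 15 were higher and 2 lower. Among 14 tested regulators and partners of Id, 0 passed for the mean of both ligands without or with the block, with a median of 0.04. After BMP4 the ETS factor gene Ets1 rose by 0.92 with the block (limma adjusted p = 0.0367), and its change after BMP6 was -0.01 (adjusted p = 1). On voom with the block Ets1 was higher for the mean of both ligands (0.46, limma adjusted p = 0.0105). After BMP4, where that fit called 6.15% of loci, Ets1 (0.94), Ets2 (0.32) and the retinoblastoma protein gene Rb1 (0.24) were higher. These genes were named after their values had been seen. Among 17 genes that bHLH and E protein complexes or Id are known to control, the cell cycle inhibitor gene Cdkn2b was lower with the block (-0.33, limma adjusted p = 0.0446), 0 passed without it, and the median was -0.004. These values come from 1 h of stimulation and 2 libraries per group.

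The genes whose 4 within-isolation changes lay nearest to each member were sought among 8698 named loci averaging 5 TPM or more, by the root mean square (RMS) difference over the 4 isolations. Nearest to Id1 were the chemokine receptor gene Cxcr4 (RMS 0.337), the inhibitory SMAD gene Smad6 (0.341), the BMP antagonist gene Nog (0.392), the SMAD co-repressor gene Skil (0.418) and the Notch glycosyltransferase gene Lfng (0.423). Smad6 changed by 1.34, 1.94, 2.04 and 2.43 in isolations 48, 54, 75 and 77, beside 1.22, 1.86, 1.87 and 1.78 for Id1, and both had their smallest change in isolation 48. Nearest to Id3 were Gse1 (0.281), the bHLH repressor gene Hey1 (0.292) and the salt-inducible kinase gene Sik1 (0.361). Nearest to Id4 were the AP-1 subunit gene Junb (0.127), Sertad1 (0.214) and Nfkbia (0.236), the last encoding an inhibitor of NF-kB. The likeness to Id4 depends on the 0.5 TPM added, which shrinks the changes of Id4 (1.28, 1.22, 0.91 and 1.08, against 1.77, 1.57, 1.12 and 1.35 on RPM) far more than those of genes averaging 5 TPM or more. Nearest to Id2 were the ETS repressor gene Erf (0.103), Hoxc11 (0.128) and the growth factor gene Pdgfa (0.140). The patterns of 4 values share their vehicle libraries, and loci with small changes come near to each other more easily, so that this is a description only.

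The labelled cell type was checked against marker genes. Of 14 muscle stem cell markers 12 averaged 0.5 TPM or more over the 8 libraries, with sums of 2366 to 2773 TPM in the BMP4 experiment and 1296 to 1784 TPM in the BMP6 experiment. Pax7, which defines satellite cells, lay between 11.1 and 16.9 TPM, and Myod1 between 421.8 and 838.5 TPM. Des, which is on the pericyte list too, held 412.3 to 1561 TPM of these sums. Calcr and Chodl, which missed the average, reached at most 0.279 and 0.262 TPM. Cd34 lay between 0.291 and 15.6 TPM. Of 12 fibroblast markers 4 reached this average, and their sums were 111.4 to 168.0 TPM in the BMP4 experiment and 41.0 to 50.8 TPM in the BMP6 experiment. Gsn, which muscle cells also make, held at most 146.7 TPM of this, and the fibroblast gene Pdgfra stayed at or below 0.354 TPM. Ly6a, on the same list, lay between 9.29 and 15.5 TPM, and Cd55 between 0.649 and 8.18 TPM. Of 12 endothelial markers, cells in which Id1 and Id3 are also high, 1 reached the average, 4 were at 0 in all libraries, and the sums were 2.34 to 4.35 TPM. Of 10 immune markers 2 reached it, and 4, Ptprc among them, were at 0 in all libraries. The 2 were Itgam, between 10.9 and 17.1 TPM, and Cd68, between 0.919 and 2.01 TPM. Of 10 pericyte and smooth muscle markers 7 reached it, among them Cspg4 (7.62 to 33.6 TPM), Notch3 (4.27 to 55.02 TPM) and Des, which muscle cells express and which held up to 1561 TPM of sums of 435.3 to 1681 TPM. Of 8 Schwann cell markers 8 reached it, with sums of 27.2 to 82.4 TPM in the BMP4 experiment and 9.81 to 15.2 TPM in the BMP6 experiment. Erbb3 held up to 68.0 TPM of these, and the Schwann cell regulator Sox10 lay between 0.834 and 2.27 TPM. The part of such cells in the Id values was not tested. The ranges of the summed fibroblast, endothelial, pericyte, Schwann cell and immune markers overlapped between stimulated and vehicle libraries within each experiment, without regard to the isolation pairs. After BMP4 both ends of each of these ranges were lower than in vehicle_a. For fibroblast markers they were 111.4 to 155.9 against 121.1 to 168.0 TPM, and for pericyte markers 1081 to 1556 against 1173 to 1681 TPM. The same held for the muscle stem cell markers, at 2366 to 2620 TPM after BMP4 against 2599 to 2773 TPM in vehicle_a. After BMP6 both ends were lower than in vehicle_b only for Schwann cell and immune markers. These differences were not tested.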

How the data were processed

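RNA was enriched for poly(A), made into strand-specific libraries and sequenced as single reads of 50 bases, per the labels' protocols. The submitters' processing notes list the genome build GRCm39, the aligner STAR 2.7.11a, SAMtools 1.17 and the quantifier StringTie 2.2.1. Per the file headers, StringTie estimated the deposited transcripts without correction for multiply mapped reads and without a strand option. The deposited joint table holds TPM per gene locus. The authors' deposited FPKM table was used as an alternative. The coverage per transcript and exon that the authors deposited was multiplied by length and divided by 50 to estimate reads, 48012828 to 58002740 per library. The number of reads limits the precision of low genes, and counting errors cover counting only.

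Loci averaging 0.5 TPM or more were tested with limma 3.58.1 in R 4.3.3 on log2(TPM + 0.5). This scale understates changes of low genes. The model held the 4 groups, and p-values were adjusted by Benjamini and Hochberg over 16908 loci, with a threshold of 0.05. Replicate numbers mark the isolation, per the labels: vehicle and stimulated cultures with the same number share their cells. Deviations from group means correlated at 0.71 in the BMP4 and 0.45 in the BMP6 experiment. The replicate block on the isolation was an alternative, with other pseudocounts, filters, units, voom, own libraries only and libraries left out. The scripts were tested on simulated data. The text names the 4 Id genes, the E proteins and the myogenic factors in all cases, up to 6 called genes per other list by size of change, and the nearest patterns. Neighbouring loci and Gm6175 were looked up after values had been seen. Members and lists were chosen with earlier results of these data known.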

Additional observations from a re-analysis of the deposited data

Results flagged for a closer look

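The 4-exon transcript of Id2 had 67.6 TPM in BMP4 replicate 1 and 61.2 TPM in BMP6 replicate 1. In the vehicle libraries it had at most 0.26 TPM. The 4-exon transcript was not tested by itself, but these values are part of the Id2 level in every comparison on TPM. The exon that sets this transcript apart had 0.343 reads per base in BMP4 replicate 1 and 0.185 in BMP6 replicate 1. In BMP6 replicate 2 it had 0.905, and there the transcript was assigned 0.124% of Id2's TPM.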

How the results depend on the processing

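The log2 changes of all 4 members after BMP4, after BMP6 and for the mean of both stayed above 0 in each alternative run. Id3 passed in 4 of 24 such runs after BMP4, in 7 of 24 after BMP6 and in 7 of 23 for the mean. With the replicate block on the isolation, members that newly passed were Id1 (1.54) and Id4 (1.25) after BMP4, Id1 (1.83) after BMP6, and Id3 (1.26) and Id4 (1.12) for the mean. The number of loci called went from 4 to 107 after BMP4, from 2 to 25 after BMP6 and from 12 to 114 for the mean. No blocked fit of vehicle_b against vehicle_a exists, since no isolation holds both.

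On voom with the replicate block the passing values were 1.54 (Id1), 0.78 (Id2), 0.82 (Id3) and 2.14 (Id4) after BMP4, with 1039 loci called, 1.84 (Id1), 1.66 (Id3) and 1.43 (Id4) after BMP6, with 73, and 1.69 (Id1), 0.75 (Id2), 1.24 (Id3) and 1.79 (Id4) for the mean, with 346. On estimated reads scaled to the library total (RPM) with the replicate block, chosen after seeing the data, they were 1.55 (Id1), 0.81 (Id2), 0.85 (Id3) and 1.67 (Id4) after BMP4, with 856 loci, 1.83 (Id1), 1.66 (Id3) and 1.24 (Id4) after BMP6, with 96, and 1.69 (Id1), 0.76 (Id2), 1.25 (Id3) and 1.45 (Id4) for the mean, with 342. Without the block Id4 passed for the mean on voom (1.80) and on RPM (1.45), and between the vehicle groups it was 1.17 and 0.84. With the experiment's own 4 libraries, 0 loci were called after BMP4 and 12 after BMP6, Id1 (1.83) and Id3 (1.66) among these.

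Without a filter on low values Id1 no longer passed for the mean (1.68, adjusted p = 0.0604), and 8 loci were called after BMP4, 12 after BMP6, 7 for the mean, 1 for the difference of ligands and 2490 between vehicle groups. FPKM, voom and RPM without the block each called 2 loci after BMP4. A pseudocount of 2 called 0 and a filter of 2 TPM called 1 after BMP6. The difference of ligands had 30 loci on voom and 39 on RPM, both with the block.

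With libraries or isolations left out, changes after BMP4 ranged from 1.22 to 1.86 for Id1, 0.15 to 1.18 for Id2 and 0.41 to 1.30 for Id3, and after BMP6 from 1.74 to 1.92 for Id1, 0.44 to 0.82 for Id2 and 1.61 to 1.71 for Id3. For the mean they ranged from 1.53 to 1.84 for Id1, from 0.39 to 0.91 for Id2 and from 1.03 to 1.48 for Id3. The difference of ligands ranged from -0.03 to 0.61 for Id1, from -0.56 to 0.47 for Id2 and from 0.36 to 1.25 for Id3. Reversed values for Id1 were -0.0025 without vehicle_a replicate 1 and -0.0333 with the block without isolation 48. Those for Id2 were 0.07, 0.47, 0.15 and 0.0028 without BMP4 replicate 1, vehicle_a replicate 2, BMP6 replicate 1 and vehicle_b replicate 2, and 0.36 and 0.11 with the block without isolations 54 and 75. Between vehicle groups the range was -0.44 to 0.13 for Id1, 0.47 to 1.50 for Id2 and -0.58 to 0.31 for Id3. The mean ranged from -0.14 to 0.27 for Myog, reversed in 4 fits (-0.12, -0.14, -0.03 and -0.04), and from -0.68 to 0.32 for Myf6, reversed in 2 (0.32 and 0.29). Loci called ranged from 0 to 145 after BMP4, 0 to 49 after BMP6, 0 to 192 for the mean, 0 to 16 for the difference and 5 to 5551 between vehicle groups. The cause of these shifts was not tested. An arm left with 1 library was assumed to vary like the other groups.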

Other observations

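Loci within 100 kb of the members were looked up after the values had been seen. Of the tested neighbours of Id1, H13 had log2 changes of -0.05, 0.02, -0.03 and 0.16 in isolations 48, 54, 75 and 77, Mcts2 of -0.01, 0.02, -0.17 and 0.21, and Bcl2l1, which encodes a survival factor, of -0.13, 0.02, 0.04 and 0.14. Cox4i2, at 0 to 1.49 TPM, had changes of -0.73, -0.37, 0.0016 and 0.61. Kidins220 beside Id2 had changes of -0.12, -0.01, 0.09 and 0.08, and ENSMUSG00000120697, at 0.488 to 3.92 TPM, of 0.19, 1.13, -0.06 and -0.12. The ribosomal protein gene Rpl11 beside Id3 stood between 772.9 and 906.4 TPM, with changes of -0.01 to 0.10. E2f2, a cell cycle transcription factor gene beside Id3, had changes of -0.64, -0.19, 0.09 and 0.13, and Asap3 of -0.64, -0.32, -0.16 and 0.02. Gm8588 beside Id4 had changes of -0.06, -0.31, -0.15 and -0.17.

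A low transcript on the minus strand, ENSMUSG00000121154, lies 1280 bases upstream of Id3, the nearest tested neighbour of any member. It had 1.06, 1.68, 0.201 and 0.211 TPM in the vehicle libraries of isolations 48, 54, 75 and 77 and 1.65, 2.46, 0.494 and 0.581 TPM in the stimulated ones. Its log2 change was thus above 0 in 4 of 4 isolations (0.46, 0.44, 0.50 and 0.60), as it was for 8.19% of all loci. This transcript was higher in the BMP4 than in the BMP6 experiment, with and without stimulation. Id3 was higher in the BMP6 experiment in the stimulated libraries alone.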
